A study of Mus musculus with 4 samples.

Results

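The brain endothelial and barrier genes described here are 10 genes measured across injured mouse cortex: Cldn5, Ocln, Cdh5 and Pecam1 of the cell junctions, the transporters Abcb1a and Mfsd2a, the growth factor receptors Flt1, Kdr and Tek, and the fenestration gene Plvap. They were chosen by name, as a set of 10 of the 32285 genes counted, and all 10 had enough counts to be tested. Spatial transcriptomes came from Visium capture areas, glass squares of barcoded spots that bind messenger RNA from a brain slice laid on top, so that a spot can hold several cells of different types. There were 4 areas with 2 slices each, from 8 mice. The mice were wild type in every area except the fourth. The first area held a slice of a resting mouse and a slice taken 2 days post-injury (dpi), the second held 2 slices at 7 dpi, the third held 2 wild-type slices at 21 dpi, and the fourth held a pair of 21 dpi slices of the genotype Cthrc1(creER); Rosa26(DTA), called deleter mice here.

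All injured mice had a photothrombotic injury, in which Rose Bengal dye and bright light over the somatosensory cortex clot the vessels below. Deleter mice carry a tamoxifen-inducible Cre driven from Cthrc1, a gene of myofibroblasts, and a diphtheria toxin A allele at Rosa26 that Cre switches on. The study set them aside because deletion could not be detected, so they serve here as further injured slices at 21 dpi. The study used mice of both sexes, backcrossed to C57BL/6. Ages were given only as a range for the whole study, 7 to 21 weeks.

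Brain endothelial cells line the vessels and form the blood-brain barrier. Tight and adherens junctions seal the gaps between them, efflux pumps return drugs and toxins to the blood, and vesicle transport is held low. In vessels without a barrier, such as those of the choroid plexus, the endothelium instead has fenestrae and Plvap. Wnt ligands acting through beta-catenin maintain the barrier programme, and VEGF and angiopoietin act on receptors of the same cells.

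Spots were sorted by Col1a1, the gene of a fibrillar collagen chain made by fibroblasts. Fibrotic spots had at least 5 Col1a1 UMIs (unique molecular identifiers, counts of captured molecules) per 10000 UMIs, the ring was the tissue 1 to 3 hexagonal steps from these, and all remaining spots are called other spots. Levels below are UMIs per 10000 UMIs of the summed spots of a slice. Tests used UMIs summed per slice and region in edgeR's quasi-likelihood test, with slice as a block for comparisons between regions and Benjamini-Hochberg adjustment over all genes tested. A gene passed at an adjusted p under 0.05, and log2 fold changes carry their standard error (SE).

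**Figure D1:**
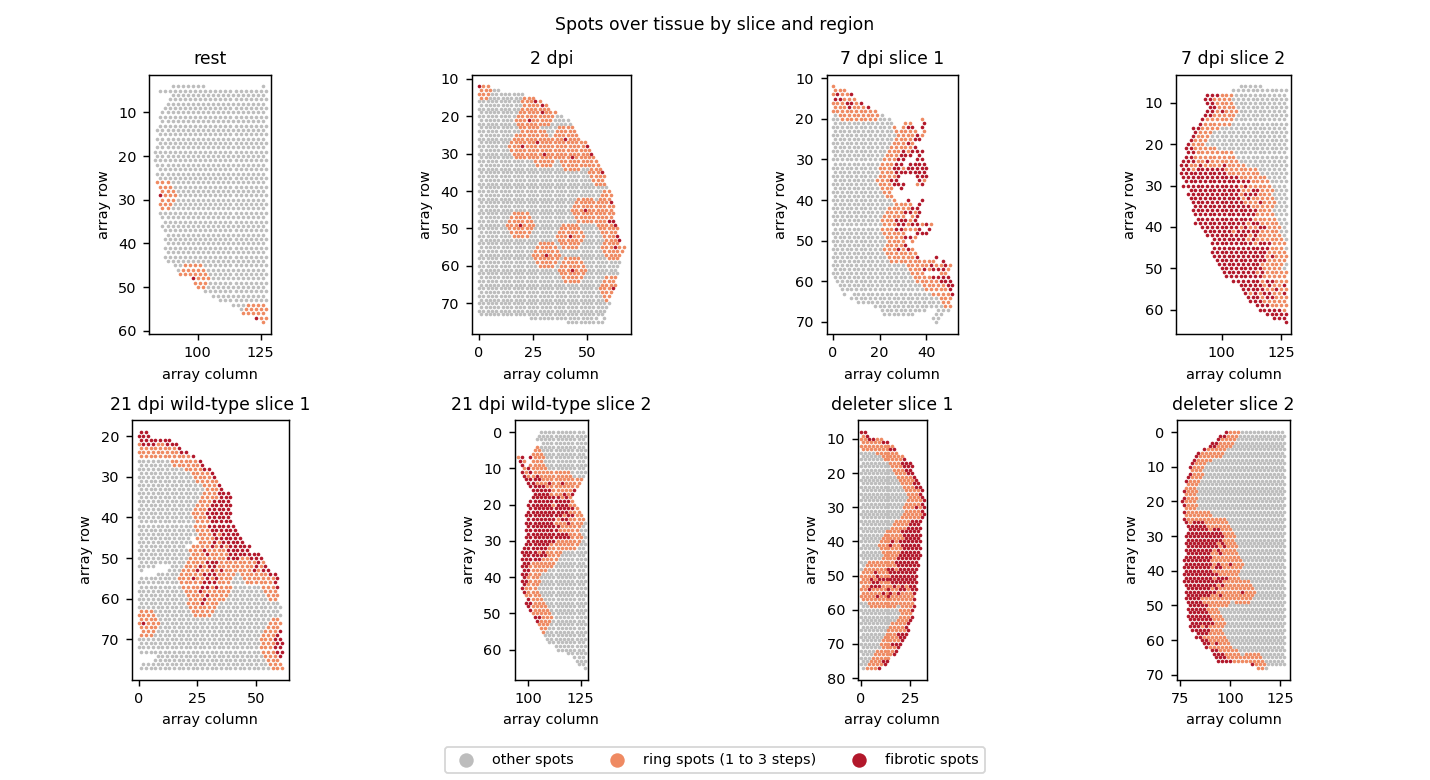
Spots over tissue of all 8 slices, drawn at their array column and row and coloured by region (fibrotic, ring, other). Fibrotic spots made up 11.5% to 41.4% of the 6 slices at 7 and 21 dpi, but were 3 spots at rest and 26 at 2 dpi.

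In all, 9340 spots lay over tissue, and the 8 slices held 11332780 to 23677298 UMIs each. Over the 6 slices at 7 and 21 dpi, median UMIs per spot ranged from 4923.5 to 13879 in fibrotic and from 12903.5 to 17857 in other spots. Fibrotic spots were shallower than other spots of the same slice except in wild-type slice 2 at 21 dpi, with 13879 against 12903.5. Slice 1 at 7 dpi stood apart in shape, since 68.75% of its fibrotic spots lay at the tissue edge against 18.4% at the lowest. For some genes the 7 dpi value is also given without it. Medians over the 6 slices include it. The slice at 2 dpi was also apart, with a median of 2633.5 UMIs per spot against 16158 at rest. Slice numbers within an area are names only. The 4 areas share 1293 spot barcodes, which mark array positions and not cells.

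A list of 10 endothelial markers summed to 3.25 to 4.80 in fibrotic and 1.42 to 2.78 in other spots of the 6 slices. None of these markers was at 0 over a slice. Since 6 of them are among the 10 genes, the sum is no separate check of what the 10 genes mark. Other cell types moved with the regions too. Fibroblast markers, which include Col1a1 itself, summed to 52.4 to 144 in fibrotic spots and 1.49 to 2.27 in other spots. The sums of macrophage and microglia markers were 40.5 to 78.2 and 3.17 to 7.85, those of pericyte and smooth muscle markers 4.72 to 6.86 and 1.37 to 2.39, and those of neuron markers 8.02 to 13.1 and 29.7 to 63.9. Astrocyte markers ran from 9.41 to 20.3 and from 5.73 to 16.1, oligodendrocyte markers from 20.9 to 98.2 and from 59.6 to 103, choroid plexus markers from 1.97 to 35.1 and from 2.82 to 167, and red cell markers from 0.540 to 8.65 and from 0.777 to 9.26. Their part in the results below was not tested. Because a spot sum mixes cells, more endothelial cells, more RNA per endothelial cell and RNA of other cell types cannot be told apart.

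Most of the 10 genes were higher in fibrotic than in other spots, and Mfsd2a went the other way. At 7 dpi 6 of the 10 passed the test, 5 higher and 1 lower, beside 48.3% of all genes. At 21 dpi 8 passed in wild-type slices, 7 higher and 1 lower, beside 56.4% of all genes, and 8 passed in deleter slices, all higher, beside 57.0% of all genes. The median log2 fold change of the 10 was 0.80, 1.23 and 1.27 in these comparisons, where the median over all genes was -0.01, -0.01 and 0.00. So large a share of all genes passed that the number called says little about the 10, and their direction and size are given gene by gene.

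**Figure D2:**
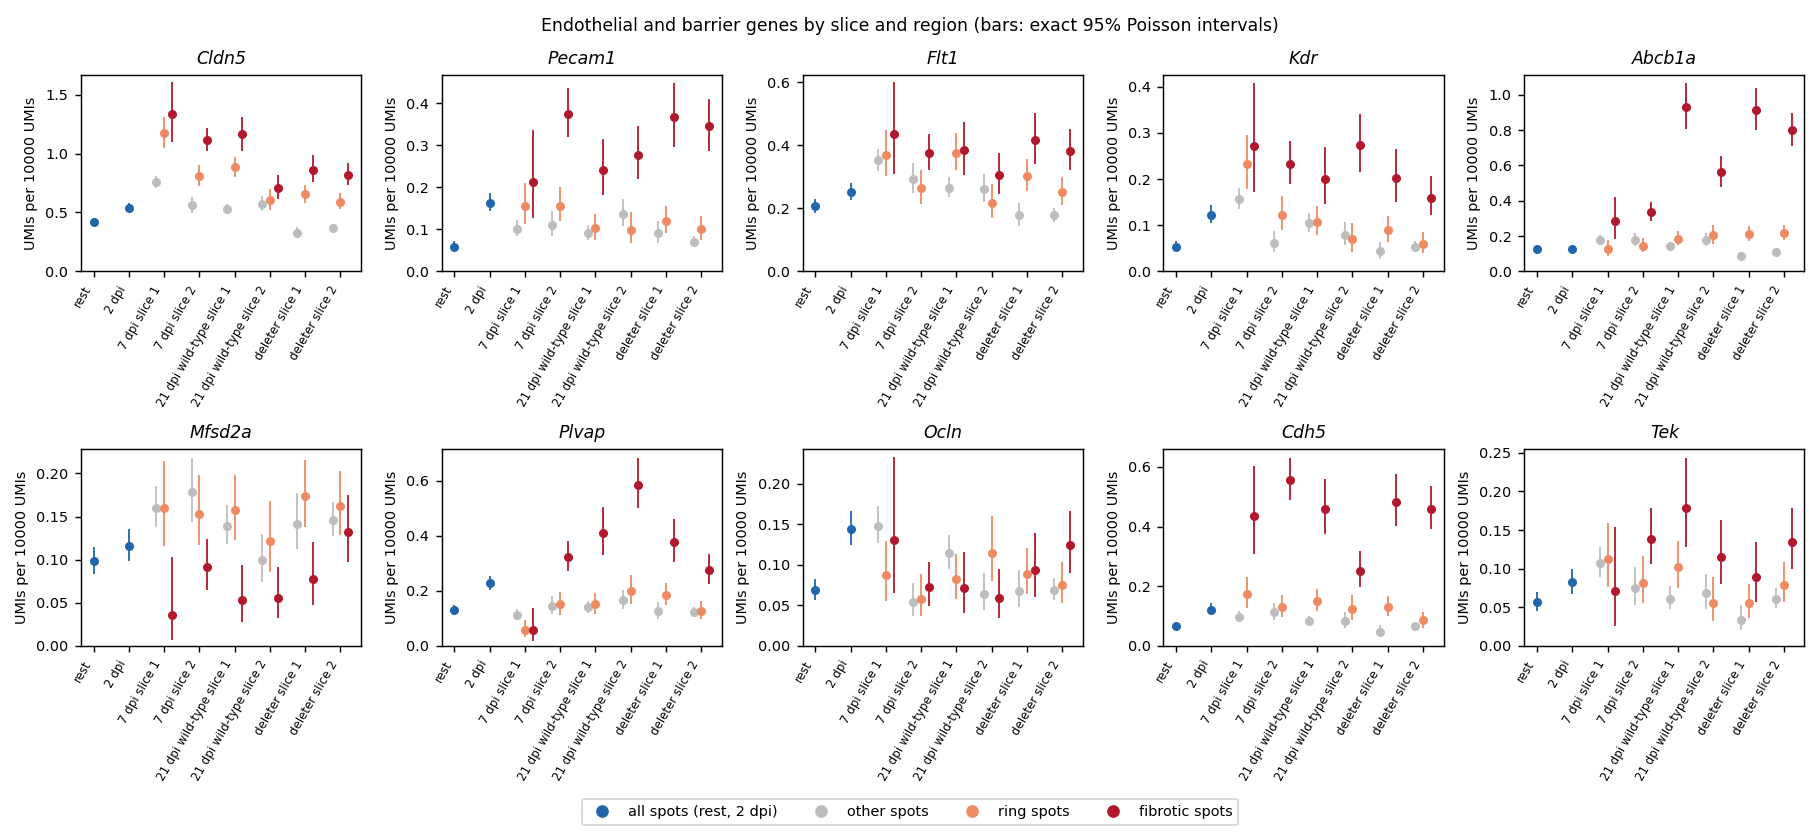
UMIs per 10000 of each of the 10 genes by slice. Points of the 6 slices at 7 and 21 dpi are coloured by region (fibrotic, ring, other). The slices at rest and 2 dpi are drawn with all their spots together. Fibrotic and other levels do not overlap for Pecam1, Kdr, Abcb1a and Cdh5 (4 of the 10, beside 20.7% of all genes with every fibrotic above every other level), and Mfsd2a is lower in fibrotic than in other spots of all 6 slices.

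Cldn5 encodes claudin-5, the main tight junction claudin of brain vessels. It lies on chromosome 16 from 18776847 to 18778262 on the plus strand (GRCm38, the build of the files). The 250 bases before its RefSeq start are shown because Cldn5 had the most UMIs of the 10 genes, with those of Mfsd2a, the 1 gene that was lower in fibrotic spots. Capitals mark CTTTGA, the core that TCF and LEF factors of the Wnt pathway bind, on either strand.
Cldn5, GRCm38.p6 chr16:18776597-18776846, plus strand: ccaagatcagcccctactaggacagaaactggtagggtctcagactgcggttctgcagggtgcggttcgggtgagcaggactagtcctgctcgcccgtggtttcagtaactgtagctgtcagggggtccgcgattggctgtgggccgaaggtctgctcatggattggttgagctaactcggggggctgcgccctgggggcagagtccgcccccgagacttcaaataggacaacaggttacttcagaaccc
Mfsd2a, GRCm38.p6 chr4:122961189-122961438, minus strand: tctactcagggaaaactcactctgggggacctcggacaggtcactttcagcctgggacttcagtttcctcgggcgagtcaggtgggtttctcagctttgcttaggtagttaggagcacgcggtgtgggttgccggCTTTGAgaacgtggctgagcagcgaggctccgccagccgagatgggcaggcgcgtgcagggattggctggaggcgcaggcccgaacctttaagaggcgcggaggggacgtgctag
CTTTGA or its reverse TCAAAG was in the window of 2 of the 7 genes with a RefSeq promoter entry, Mfsd2a and Abcb1a, and in 13.8% of 32817 promoters. CAGGAA or its reverse TTCCTG, a core of ETS factors, was in that of 1 gene, Tek, and in 25.7% of promoters. The Abcb1a window precedes a RefSeq start far upstream of the gene start given for Abcb1a below. No window of these genes held both motifs, and that of Cldn5 held neither. Pecam1, Plvap and Cdh5 had no entry.

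In fibrotic spots Cldn5 reached 1.33 and 1.12 in slices 1 and 2 at 7 dpi, 1.16 and 0.711 in those at 21 dpi, and 0.864 and 0.821 in deleter slices. In other spots of the same slices it stood at 0.755 and 0.560, 0.530 and 0.576, and 0.325 and 0.372. Fibrotic spots were above other spots in 6 of 6 slices, although the lowest fibrotic value lay below the highest other value. Cldn5 rose by 1.01 on the log2 scale at 7 dpi (SE 0.19, adjusted p = 0.000693, edgeR), by 0.76 at 21 dpi (SE 0.18, adjusted p = 0.00371, edgeR) and by 1.24 in deleter slices (SE 0.19, adjusted p = 9.93e-05, edgeR). Without wild-type slice 1 the log2 fold change at 21 dpi was 0.29. Without slice 2 at 7 dpi the 7 dpi value was 0.90. Each then rests on 1 slice.

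Cdh5, on chromosome 8 from 104101625 to 104144511 (plus strand), encodes VE-cadherin, the cadherin of endothelial adherens junctions. It reached 0.437 and 0.555 in fibrotic spots at 7 dpi, 0.460 and 0.252 at 21 dpi and 0.483 and 0.460 in deleter slices, and 0.0485 to 0.112 (median 0.0837) in other spots. No fibrotic value overlapped with the other spots. Cdh5 was 5.18-fold higher in fibrotic spots at 7 dpi (log2 2.37, SE 0.27, adjusted p = 2.48e-05, edgeR), 4.32-fold at 21 dpi (log2 2.11, SE 0.28, adjusted p = 3.44e-05, edgeR) and 7.63-fold in deleter slices (log2 2.93, SE 0.27, adjusted p = 2.00e-06, edgeR). Per spot, which takes no account of depth, it was also higher in fibrotic spots of 6 of 6 slices, and it was the 1 gene of the 10 for which that held.

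Pecam1, on chromosome 11 from 106654217 to 106750628 (minus strand), encodes CD31, an adhesion molecule of endothelial contacts that leukocytes and platelets also carry. Its fibrotic levels were 0.213 and 0.373 at 7 dpi, 0.241 and 0.277 at 21 dpi and 0.366 and 0.344 in deleter slices, all above the range of other spots, 0.0694 to 0.136. Pecam1 rose by 1.62 on the log2 scale at 7 dpi (SE 0.24, adjusted p = 0.000135, edgeR), by 1.24 at 21 dpi (SE 0.23, adjusted p = 0.000461, edgeR) and by 2.14 in deleter slices (SE 0.22, adjusted p = 4.74e-06, edgeR). Without slice 2 at 7 dpi the 7 dpi value was 1.14, then resting on 1 slice.

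Ocln, on chromosome 13 from 100496507 to 100552718 (minus strand), encodes the tight junction protein occludin, which epithelia share. It ranged from 0.0596 to 0.130 (median 0.0831) in fibrotic and from 0.0543 to 0.148 (median 0.0688) in other spots, and fibrotic spots were the higher in 3 of 6 slices. The log2 fold changes were 0.18 (SE 0.35), -0.43 (SE 0.35) and 0.65 (SE 0.31) at 7 dpi, at 21 dpi and in deleter slices, and none passed edgeR's test (adjusted p = 0.701, 0.314 and 0.0892). Ocln thus had no common direction. The deleter value passed once choroid plexus spots were left out, at 1.19 (adjusted p = 0.00515, edgeR).

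Abcb1a encodes a P-glycoprotein, the efflux pump of the barrier, and lies on chromosome 5 from 8660077 to 8748575 (plus strand). How the counting treated reads shared with its close paralog Abcb1b was not tested. Its fibrotic levels were 0.283 and 0.337 at 7 dpi, 0.930 and 0.561 at 21 dpi and 0.915 and 0.799 in deleter slices, against 0.0844 to 0.178 (median 0.159) in other spots. All 6 fibrotic values lay above all other values, and the 4 slices at 21 dpi lay above both slices at 7 dpi. Abcb1a was 1.89-fold higher in fibrotic spots at 7 dpi (log2 0.92, SE 0.25, adjusted p = 0.00983, edgeR), 4.75-fold at 21 dpi (log2 2.25, SE 0.23, adjusted p = 3.89e-06, edgeR) and 8.43-fold in deleter slices (log2 3.08, SE 0.23, adjusted p = 3.84e-07, edgeR). The 7 dpi call did not pass without slice 1 (1.00) or without slice 2 (0.75), each of which leaves 1 slice in the group.

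Mfsd2a encodes a lysolipid transporter that carries omega-3 fatty acids into the brain and keeps vesicle transport low. It lies on chromosome 4 from 122946850 to 122961188 (minus strand). Fibrotic levels were 0.0354 and 0.0910 at 7 dpi, 0.0536 and 0.0561 at 21 dpi and 0.0779 and 0.132 in deleter slices. Other spots of the same slices held 0.160 and 0.178, 0.140 and 0.0993, and 0.142 and 0.146. Fibrotic spots were below other spots in 6 of 6 slices, with an overlap between slices. Mfsd2a fell by 1.08 on the log2 scale at 7 dpi (SE 0.30, adjusted p = 0.0109, edgeR) and by 1.06 at 21 dpi (SE 0.32, adjusted p = 0.0120, edgeR), and its value in deleter slices was -0.45 (SE 0.26, adjusted p = 0.165, edgeR), or -0.96 with a Col1a1 minimum of 10 for fibrotic spots (adjusted p = 0.0305, edgeR). Without slice 1 the 7 dpi value was -0.90 and without slice 2 it was -2.10. Without wild-type slice 1 the 21 dpi value was -0.83. Each then rests on 1 slice.

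Of the joint UMIs of the 10 genes, Mfsd2a made up 1.08% to 3.64% in fibrotic spots and 5.80% to 12.4% in other spots, with no overlap over the 6 slices. Cdh5 took 7.89% to 15.4% in fibrotic and 4.25% to 6.36% in other spots, again with no overlap. Flt1 took 9.39% to 13.4% and 14.2% to 16.6%, and Abcb1a 8.66% to 23.5% and 7.39% to 10.4%. The balance of the 10 genes thus differed between the regions, as did their joint sum of 3.20 to 4.10 in fibrotic and 1.14 to 2.17 in other spots. Shares are a description, and 1 gene's share moves with those of the others.

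Among the receptors, Kdr on chromosome 5 (75932827 to 75978458, minus strand) encodes VEGFR2, the main signalling receptor of VEGF. Its fibrotic levels were 0.272 and 0.232 at 7 dpi, 0.201 and 0.273 at 21 dpi and 0.202 and 0.160 in deleter slices, above 0.0431 to 0.157 in other spots with no overlap. Kdr rose by 1.47 at 7 dpi (SE 0.31, adjusted p = 0.00162, edgeR), by 1.41 at 21 dpi (SE 0.30, adjusted p = 0.00129, edgeR) and by 1.80 in deleter slices (SE 0.31, adjusted p = 0.000292, edgeR), all on the log2 scale. Without slice 2 the 7 dpi value was 0.86, and without wild-type slice 2 the 21 dpi value was 1.00, each then resting on 1 slice.

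Flt1, also on chromosome 5 (147561604 to 147726011, minus strand), encodes VEGFR1, which binds VEGF tightly and also has a soluble form. It ranged from 0.305 to 0.437 (median 0.384) in fibrotic and from 0.178 to 0.353 (median 0.264) in other spots, and fibrotic spots were the higher in 6 of 6 slices. Flt1 passed the test in deleter slices, with a log2 rise of 1.13 (SE 0.18, adjusted p = 0.000185, edgeR). The values at 7 and 21 dpi were 0.44 (SE 0.19, adjusted p = 0.0760, edgeR) and 0.42 (SE 0.19, adjusted p = 0.0771, edgeR), and both passed with a Col1a1 minimum of 10, at 0.49 (adjusted p = 0.0301, edgeR) and 0.59 (adjusted p = 0.00773, edgeR). The difference of Flt1's fold change between deleter and wild-type slices was not tested.

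Tek, on chromosome 4 from 94739289 to 94874976 (plus strand), encodes TIE2, the angiopoietin receptor. It stood at 0.0708 and 0.139 in fibrotic spots at 7 dpi, 0.179 and 0.116 at 21 dpi and 0.0895 and 0.135 in deleter slices, and at 0.0341 to 0.108 (median 0.0647) in other spots. Fibrotic spots were the higher in 5 of 6 slices, slice 1 at 7 dpi being the exception. The log2 fold changes were 0.53 at 7 dpi (SE 0.35, adjusted p = 0.227, edgeR), 1.22 at 21 dpi (SE 0.33, adjusted p = 0.00699, edgeR) and 1.20 in deleter slices (SE 0.34, adjusted p = 0.00825, edgeR). Tek had the fewest UMIs of the 10 genes, 780 over the 6 slices. Its 21 dpi call did not pass without wild-type slice 1 (0.75). Its deleter call did not pass without deleter slice 1 (1.14) or deleter slice 2 (1.41). Each of these fits leaves 1 slice in the group.

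Plvap encodes the protein of fenestral and vesicle diaphragms, which barrier vessels normally lack, and lies on chromosome 8 from 71497765 to 71511752 (minus strand). Its fibrotic levels were 0.0590 and 0.323 at 7 dpi, 0.411 and 0.585 at 21 dpi and 0.378 and 0.276 in deleter slices, against 0.111 to 0.165 (median 0.134) in other spots. Slice 1 at 7 dpi was the 1 slice with less Plvap in fibrotic than in other spots. Plvap rose by 1.71 on the log2 scale at 21 dpi (SE 0.25, adjusted p = 8.67e-05, edgeR) and by 1.31 in deleter slices (SE 0.26, adjusted p = 0.000808, edgeR). At 7 dpi its value was 0.69 (SE 0.30, adjusted p = 0.0800, edgeR). Without slice 1 it was 1.21 and without slice 2 it was -0.84, each then resting on 1 slice.

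**Figure D3:**
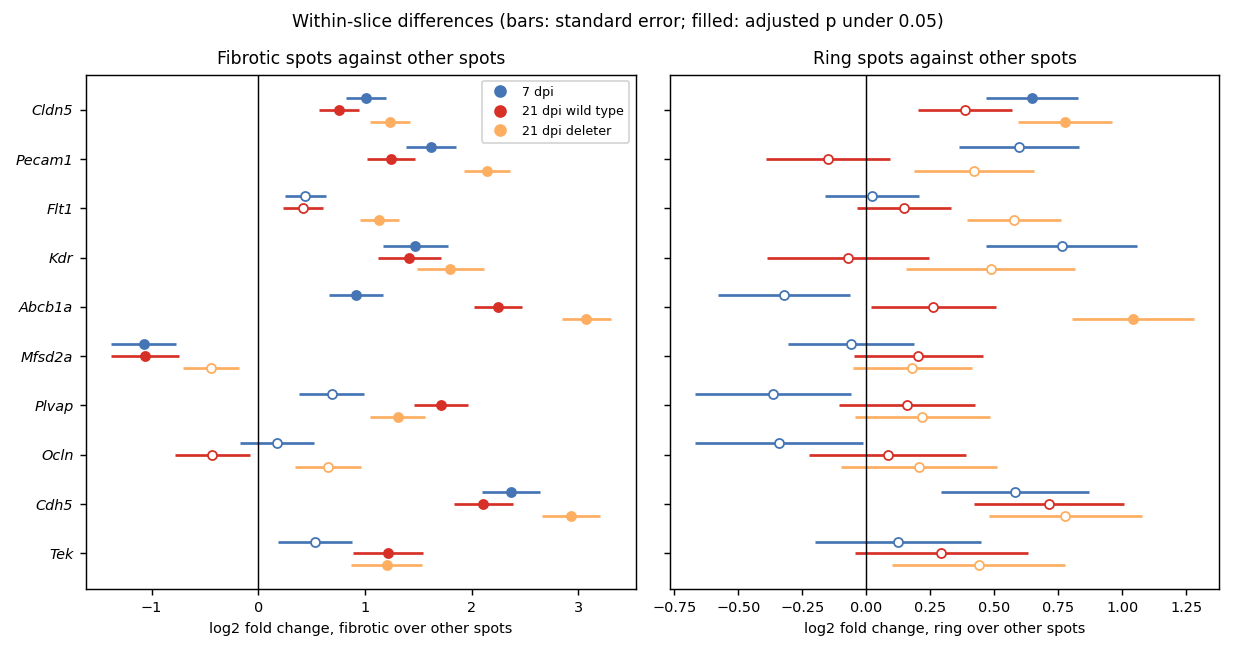
Log2 fold change of fibrotic (left) and ring (right) over other spots for each of the 10 genes. Values are shown at 7 dpi, at 21 dpi and in deleter slices, with bars of 1 SE. Points are filled where the adjusted p of edgeR's test was under 0.05. In the fibrotic panel Mfsd2a lies below 0 in all 3 groups, and Cdh5, at 2.11 to 2.93, lies above 2 in all 3.

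Depth falls differently on each scale. Per spot, fibrotic spots held more Cldn5, Pecam1, Kdr, Abcb1a, Plvap and Tek UMIs than other spots in 5 of 6 slices, more Flt1 in 4 and more Ocln in 2, and less Mfsd2a in 6 of 6. The direction of Mfsd2a and Cdh5 was thus the same on both scales in all slices.

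In the ring the 10 genes summed to 1.75 to 2.65, closer to other than to fibrotic spots. There Cldn5 alone passed at 7 dpi, beside 19.3% of all genes, with a log2 rise of 0.65 (SE 0.18, adjusted p = 0.0245, edgeR). None of the 10 passed in wild-type slices at 21 dpi, beside 8.69% of all genes, where 1 had an unadjusted p under 0.05 and DESeq2 also called none. In deleter slices 2 passed, beside 11.3% of all genes: Cldn5 rose by 0.78 (SE 0.18, adjusted p = 0.0164, edgeR) and Abcb1a by 1.04 (SE 0.24, adjusted p = 0.0141, edgeR). Neither the 7 dpi nor the deleter calls passed when either slice of that group was left out, which leaves 1 slice in the group. Ring levels of Cldn5 were 1.17 and 0.809 at 7 dpi, 0.882 and 0.605 at 21 dpi and 0.654 and 0.592 in deleter slices, above other spots in 6 of 6 slices.

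**Figure D4:**
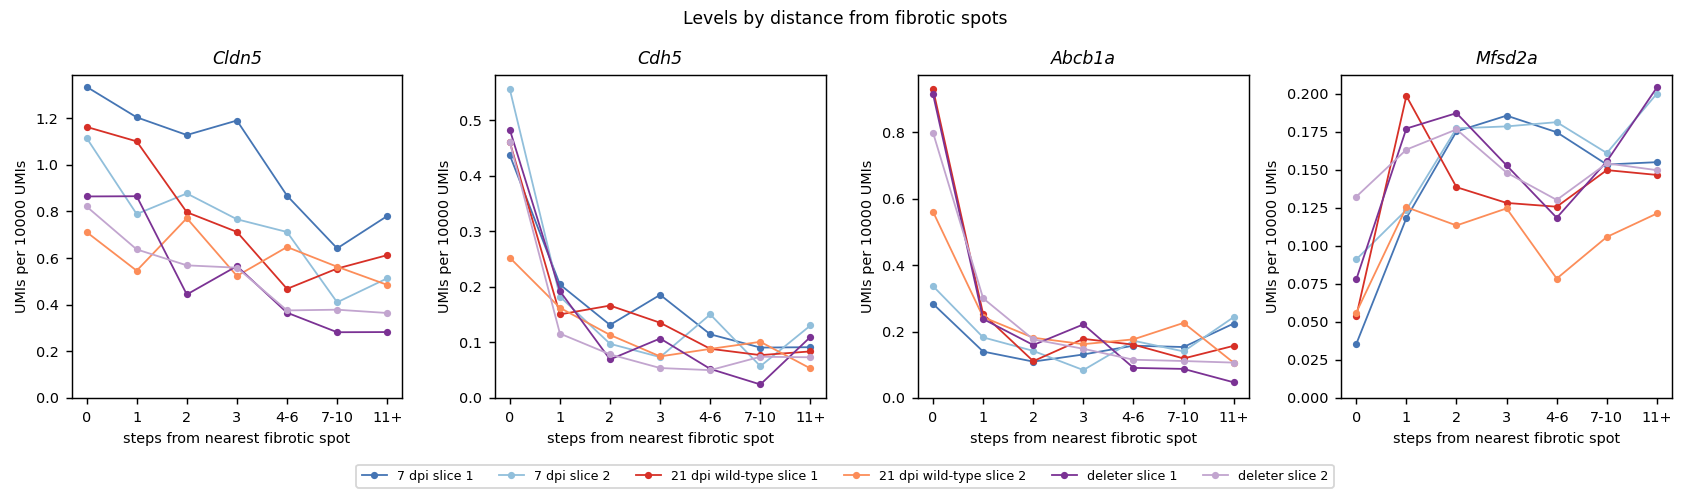
UMIs per 10000 of Cldn5, Cdh5, Abcb1a and Mfsd2a by hexagonal steps from the nearest fibrotic spot, with a line for each of the 6 slices; step 0 is the fibrotic spots. The median of Cdh5 drops from 0.460 to 0.172 in the first step, while Cldn5 declines from 0.990 to 0.827.

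With distance, the genes parted. Median Cldn5 over the 6 slices was 0.990 in fibrotic spots, 0.827 in the first step outside, 0.784 in the second, 0.639 in the third and 0.558 at 4 to 6 steps. Median Abcb1a was 0.680 in fibrotic spots, 0.241 in the first step and 0.151 in the second. Cdh5 had nearly the same shape, with 0.460, 0.172 and 0.105, so both were near their far level, 0.132 and 0.0875 from step 11 on, by the second step, whereas Cldn5 was not near its far level of 0.499 until 4 to 6 steps. Mfsd2a was lower in fibrotic spots than outside, with medians of 0.0670, 0.144 and 0.176. Further out its medians were 0.150 in the third step, 0.128 at 4 to 6 steps and 0.152 from step 11 on, with no steady rise. Spots with distance come from the same 6 slices, and the steps were not tested against each other.

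Within fibrotic tissue the genes also differed with the amount of Col1a1. Median Plvap was 0.184 in spots of 5 to 15 Col1a1 UMIs per 10000, 0.295 in those of 15 to 40 and 1.03 in those above 40. Pecam1 had medians of 0.185, 0.413 and 0.519. Both were higher in the top than in the lowest class in 5 of 5 slices. Cldn5 went the other way, with medians of 1.06, 1.07 and 0.552. So did Mfsd2a, with 0.0994, 0.0639 and 0.0295, and Ocln, with 0.0893, 0.0787 and 0.0358. Cldn5, Mfsd2a and Ocln were each lower in the top than in the lowest class in 5 of 5 slices. Cldn5 hardly differed in wild-type slice 1 at 21 dpi. It had 1.21 (95% exact Poisson interval 1.02 to 1.41) in the lowest class and 1.18 (0.843 to 1.61) in the top. The top-class levels rest on few UMIs, 1 to 4 per slice for Mfsd2a and 1 to 11 for Ocln. Abcb1a had medians of 0.493, 0.969 and 0.842, and was higher in the top class in 5 of 5 slices. Kdr, Cdh5 and Tek were higher in the top than in the lowest class in 4 of 5 slices, and Flt1 in 3 of 5. Slice 1 at 7 dpi had 5 spots above 40 and was left out of that class. The classes share their slices and were not tested.

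**Figure D5:**
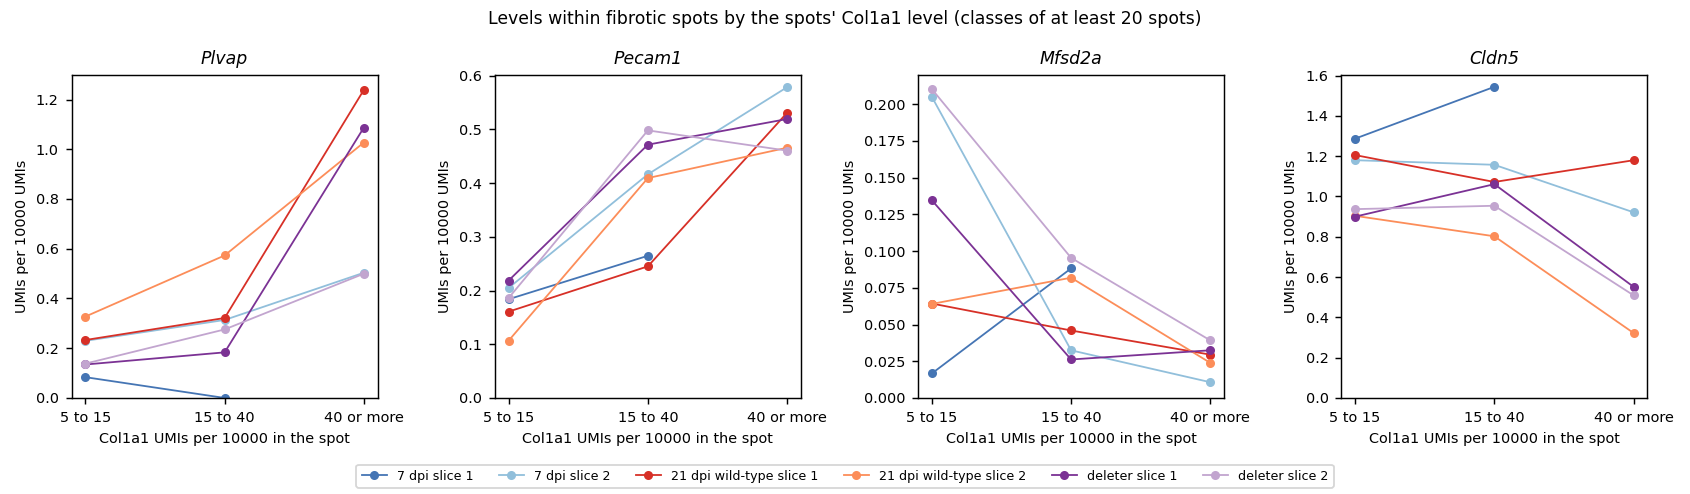
UMIs per 10000 of Plvap, Pecam1, Mfsd2a and Cldn5 in fibrotic spots by Col1a1 class, with a line for each slice and classes of under 20 spots left out. Plvap and Pecam1 are higher, and Cldn5 and Mfsd2a lower, in the top than in the lowest class in 5 of 5 slices. Top-class levels of Mfsd2a rest on 1 to 4 UMIs per slice.

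Fibrotic spots at the tissue edge, those with a neighbouring position off the tissue, held more Pecam1, Flt1, Plvap and Cdh5 than fibrotic spots of the interior in 6 of 6 slices. The medians were 0.531 against 0.259 for Pecam1, 0.660 against 0.295 for Flt1, 0.557 against 0.260 for Plvap and 0.586 against 0.428 for Cdh5. Cldn5 was higher at the edge in 2 of 6 slices, with medians of 1.05 and 0.958, and Mfsd2a in 2 of 6. The edge was not tested.

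The change from 7 to 21 dpi was compared in wild-type slices. In fibrotic spots 1 of the 10 genes passed, beside 4.39% of all genes: Abcb1a was lower at 7 than at 21 dpi, by a log2 value of -1.19 (SE 0.25, adjusted p = 0.0222, edgeR). Plvap stood at -0.99 (SE 0.38, adjusted p = 0.187, edgeR) and Cdh5 at 0.57 (SE 0.25, adjusted p = 0.259, edgeR). The Abcb1a call did not pass without slice 1 (-1.15) or slice 2 at 7 dpi (-1.34), or without wild-type slice 1 (-0.81). Each of these fits leaves 1 slice in a group.

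The fibrotic-over-other fold itself was also compared between the times. There none of the 10 passed, beside 0.407% of all genes, where 2 had an unadjusted p under 0.05 and DESeq2 called none. Those 2 were Abcb1a at -1.33 (SE 0.34, adjusted p = 0.110, edgeR) and Plvap at -1.03 (SE 0.39, adjusted p = 0.263, edgeR). In other spots none passed, beside 0.0204% of all genes, and none had an unadjusted p under 0.05 or was called by DESeq2.

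Time cannot be told apart from capture area here, nor from sex as the sex-linked genes show it. Xist had 1597 and 1281 UMIs in the slices at 7 dpi against 4 and 1 in those of wild-type mice at 21 dpi, and Ddx3y had 1 and 0 against 1195 and 805.

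Between deleter and wild-type slices at 21 dpi, fibrotic spots gave no call. None of the 10 passed, beside 0.0226% of all genes. Mfsd2a alone had an unadjusted p under 0.05, at 0.97 higher on the log2 scale in deleter slices (SE 0.42, adjusted p = 0.776, edgeR), and DESeq2 called none. The log2 values of the other 9 lay between -0.63 for Plvap and 0.76 for Ocln. Genotype coincides with capture area, and sex also differed, since deleter slice 1 had 1033 Xist and 6 Ddx3y UMIs and slice 2 had 19 and 1323. With 2 slices a group this does not show the groups to be alike.

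At 2 dpi the genes were read against rest without a test, since each time had 1 slice. Per 10000 UMIs, 3 of the 10 were past a 2-fold difference, beside 18.4% of all genes, and all 3 were higher at 2 dpi. Pecam1 was 0.0587 at rest and 0.163 at 2 dpi (ratio 2.79, 95% exact binomial interval 2.18 to 3.58). Kdr was 0.0538 and 0.122 (ratio 2.27, 1.74 to 2.98), and Ocln 0.0685 and 0.144 (ratio 2.11, 1.66 to 2.69). These intervals cover counting error only. The slice at 2 dpi also held more choroid plexus, with 259 spots of at least 50 Ttr UMIs per 10000 against 18 at rest. Choroid plexus markers summed to 194 per 10000 at 2 dpi and 5.49 at rest. The ratios include these spots. Ratios without choroid plexus spots are not given here, and the part of choroid plexus in the ratios was not tested. Abcb1a, at 0.125 and 0.128, had a ratio of 1.02 (0.829 to 1.26), and Mfsd2a, at 0.0984 and 0.116, one of 1.18 (0.939 to 1.48). The remaining ratios were 1.87 for Cdh5, 1.76 for Plvap, 1.45 for Tek, 1.29 for Cldn5 and 1.22 for Flt1.

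Per spot the order turned for most. For every 100 spots, Cldn5 had 67.6 UMIs at rest and 41.0 at 2 dpi, Abcb1a 20.1 and 9.68, Flt1 33.2 and 19.1 and Mfsd2a 15.8 and 8.81. Pecam1 was the higher at 2 dpi on both scales, with 9.44 and 12.4, and so was Kdr, with 8.65 and 9.27. Ocln had 112 UMIs over the 1017 spots at rest and 189 over the 1726 spots at 2 dpi. At 2 dpi 21.7% of spots had under 1000 UMIs. In those 375 spots the 10 genes summed to 1.64 per 10000 (95% exact Poisson interval 1.17 to 2.25), beside 1.90 in the 1351 deeper spots.

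Other genes of the same pathways were taken from lists named in the processing account. Their counts stand beside 48.3%, 56.4% and 57.0% of all genes past the test at 7 dpi, at 21 dpi and in deleter slices. Of 23 tested genes of barrier transport and junctions, 12 passed in fibrotic spots at 7 dpi (7 higher, 5 lower), 17 at 21 dpi (12 and 5) and 21 in deleter slices (15 and 6). The 7 dpi count was near the share of all genes. Their median log2 fold changes were 0.24, 0.64 and 0.76. Itm2a, a membrane protein gene of brain endothelium, rose by 1.76, 2.32 and 2.52 on the log2 scale, and Lsr, of tricellular junctions, by 1.67, 1.86 and 2.33. Tfrc, the transferrin receptor, fell by 0.94, 1.16 and 1.01, and Spock2, a proteoglycan gene that neurons also express, by 1.28, 1.97 and 1.49.

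Of 16 genes of the endothelial Wnt-beta-catenin pathway, 8 passed at 7 dpi (7 higher, 1 lower), 8 at 21 dpi and 9 in deleter slices, the last 2 counts all higher, with medians of 0.53, 0.67 and 0.93. These counts were near or below the 48.3%, 56.4% and 57.0% of all genes. Adgra2, the co-receptor GPR124, rose by 2.97, 2.96 and 3.73 on the log2 scale, and Lrp5, a Wnt co-receptor, by 1.94, 2.17 and 3.09. Tspan12, a Norrin co-receptor, fell by 0.64 at 7 dpi.

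Of 18 genes of VEGF and angiopoietin ligands and co-receptors, 11 passed at 7 dpi (10 higher, 1 lower), 12 at 21 dpi (10 and 2) and 14 in deleter slices (13 and 1), beside the same 48.3%, 56.4% and 57.0% of all genes, with medians of 0.96, 1.27 and 1.84. Aplnr, the apelin receptor, rose by 2.80, 4.39 and 4.66, Angpt2, a ligand of TIE2, by 2.25, 3.18 and 4.25, and Nrp1, a VEGF co-receptor, by 2.24, 3.63 and 2.73, all on the log2 scale. Apln, the ligand of Aplnr, fell by 0.97, 0.88 and 1.36.

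Beside 48.3%, 56.4% and 57.0% of all genes past the test, 16, 15 and 18 of 19 pan-endothelial genes rose and none fell, with medians of 1.57, 1.44 and 1.81, led by Cd93, an adhesion receptor that myeloid cells share, at 2.88, 3.13 and 3.51 on the log2 scale. Of 9 tested genes of leukocyte adhesion and venous endothelium 6, 8 and 7 passed beside the same shares, all higher but 1, Ackr1, which fell by 1.10 at 21 dpi. Icam1, a leukocyte adhesion molecule also made by macrophages, rose by 2.22, 3.57 and 3.68. These lists were not compared with the 10 genes by a test.

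Over the 18 sums of 6 slices and 3 regions, the genes most like Cldn5 among 14972 were Ctla2a, Adgrl4, I830077J02Rik, Pold4 and Grap, with Pearson r of log2 normalised counts of 0.926 to 0.935. Those most like Plvap were Mospd3, Zfp764, Plagl1, Pawr and Tmem51, with r of 0.895 to 0.945. Some of these genes had few counts over the 18 sums, with 63 UMIs for Pawr, 380 for Zfp764 and 307 for I830077J02Rik. Of the 10, Flt1 (r = 0.90), Kdr (r = 0.86) and Cdh5 (r = 0.81) followed Cldn5 most, and Plvap (r = 0.07) and Mfsd2a (r = -0.50) least. The sums share slices and depth, so these values describe the order only.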

How the data were processed

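Spatial transcriptomes of 4 Visium capture areas were analysed. The authors aligned reads to mm10 with Space Ranger 2.0.0 and deposited UMI counts for each gene in each spot, not normalized, together with the spots' array positions, which are other numbers and were used to place spots.

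Spots over tissue were kept, 4 of them without a UMI. Connected pieces gave 2 slices per area, each taken as 1 mouse. In the first area the piece of 1017 spots was taken as rest and that of 1726 as 2 dpi, from outlines the study shows, since the labels name both and place neither. No cell types were assigned and no doublet caller was run.

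UMIs were summed per slice and region with Python 3.11.15, and tested with edgeR 4.0.16 in R 4.3.3 (TMM, filterByExpr, quasi-likelihood F test, Benjamini-Hochberg). One fit held 3 regions of 6 slices with slice as a block, and others compared 3 groups of 2 slices within a region. On simulated counts the step called most 4-fold but few 2-fold changes, short of a first criterion that was then replaced by one for each fold size. A gene that did not pass may thus still differ. MAST, which the study ran over spots, was not applied, since spots of a slice are not replicates. For comparisons between regions, p-values measure how the differences within slices vary from slice to slice. For comparisons between groups, they measure the spread between slices. In both, the spread was shared over 3 groups of 2 slices, deleter slices included. Intervals are at the 95% level.

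The 10 genes and the lists (barrier transport and junction, Wnt-beta-catenin, VEGF and angiopoietin, pan-endothelial, leukocyte adhesion and venous, and markers of 9 cell types) were chosen with earlier results of these data known. Every one of the 10 was named, with at most 4 listed genes per comparison from those changed most, and the 5 genes closest to Cldn5 and to Plvap. Positions are from GENCODE M21 on GRCm38 and promoters from RefSeq on GRCm38.p6.

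Alternatives were a Col1a1 minimum of 10, interior spots alone, no choroid plexus spots (at least 50 Ttr UMIs per 10000), no filter on low counts, no TMM, DESeq2 1.42.0, a ring of 1 to 2 steps, no deleter slices, no slice block, and each slice left out in turn.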

Additional observations from a re-analysis of the deposited data

Results flagged for a closer look

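The following 3 differences ran in opposite directions in every slice of a pair of groups. None of these differences between groups was tested, and how many of all genes show such a pattern was not counted. The differences are given as UMIs per 10000 per slice, without intervals. Ocln in fibrotic minus other spots was 0.0251 and 0.0546 in deleter slices and -0.0429 and -0.00478 in wild-type slices at 21 dpi. Abcb1a in the ring minus other spots was 0.125 and 0.105 in deleter slices and 0.0416 and 0.0255 in wild-type slices at 21 dpi, against -0.05025 and -0.0306 at 7 dpi. Mfsd2a in the ring minus other spots was 0.0315 and 0.0167 in deleter slices and 0.0178 and 0.0224 in wild-type slices at 21 dpi, against -0.00099 and -0.0246 at 7 dpi. The difference of -0.00099 rests on 44 Mfsd2a UMIs in the ring of slice 1 at 7 dpi. Counting error could turn the sign of differences as small as this or as -0.00478 for Ocln. With a Col1a1 minimum of 10 the log2 value of Abcb1a in the ring at 7 dpi turned its sign, to 0.29. That of Mfsd2a in the ring of wild-type slices at 21 dpi also turned, to -0.0620.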

How the results depend on the processing

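Of the 26 log2 values of the 10 genes that passed edgeR's test, none turned its direction. They passed in 197 of 200 recomputations with another setting, and not all of them passed with each slice left out. Numbers of the 10 genes past the test moved as follows, and the cause was not tested. Numbers over all genes in the same settings are not given here, so these counts say little about the 10. With a Col1a1 minimum of 10 fibrotic against other spots gave 8, 9 and 9 at 7 dpi, at 21 dpi and in deleter slices, adding Flt1 and Plvap (0.82, adjusted p = 0.0398, edgeR) at 7 dpi, Flt1 at 21 dpi and Mfsd2a in deleter slices. Without choroid plexus spots it gave 6, 9 and 9, adding Flt1 at 21 dpi (0.49, adjusted p = 0.0318, edgeR) and Ocln in deleter slices. With a Col1a1 minimum of 10 the ring gave 4 at 7 dpi, 2 at 21 dpi and 5 in deleter slices, and 7 against 21 dpi in fibrotic spots gave 2. Without choroid plexus spots the ring at 7 dpi gave 2, and with DESeq2 it gave 0. With no filter on low counts the fibrotic-over-other fold between times gave 1 and fibrotic spots at 7 against 21 dpi gave 2. Without the slice block the ring gave 0 at 7 dpi and 1 in deleter slices, and fibrotic against other spots gave 6, 8 and 8 at 7 dpi, at 21 dpi and in deleter slices, as with the block. Regions were paired within slices by the slice block, but groups could not be paired, because slice numbers name no shared animal between groups. The deleter ring gave 3 without choroid plexus spots, with no filter, with no TMM and in a ring of 1 to 2 steps, so the ring counts, 1, 0 and 2 as reported, depended on the setting.

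With a slice left out, 1 group rests on 1 slice, and the spread in the fit comes from the other groups. Whether a gene passes there does not measure the spread between mice of that group. Numbers past the test are therefore not given for these fits.

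Values that turned their sign had not passed the test. Fibrotic against other spots at 7 dpi, Ocln was -0.14 without the slice block. In the ring at 7 dpi Abcb1a was 0.29 with a Col1a1 minimum of 10, and Flt1 was -0.00824 without choroid plexus spots, -0.0293 with DESeq2, -0.0914 with no filter, -0.0404 with no TMM, -0.0215 without deleter slices and -0.0476 in a ring of 1 to 2 steps. In the ring at 21 dpi a Col1a1 minimum of 10 gave Pecam1 0.0644, Mfsd2a -0.0620 and Ocln -0.0109, interior spots gave Kdr 0.0736 and Ocln -0.0613, no choroid plexus spots gave Kdr 0.20, and a ring of 1 to 2 steps gave Pecam1 0.00134. For the fold between times Flt1 was -0.0998 with a Col1a1 minimum of 10, -0.0946 without choroid plexus spots, -0.0142 with no filter, -0.0375 with no TMM and -0.0289 without the slice block. Kdr was -0.21 with a Col1a1 minimum of 10, -0.34 without choroid plexus spots, -0.00139 with no TMM and -0.18 without the slice block, and Mfsd2a was 0.0576, 0.0455 with interior spots, 0.13 without choroid plexus spots and 0.0742 without the slice block. In fibrotic spots between times Kdr was -0.33 with a Col1a1 minimum of 10 and -0.0586 without choroid plexus spots.

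With a slice left out, ranges across 0 were these. Fibrotic against other spots at 7 dpi: Plvap -0.84 to 1.21, Ocln -0.12 to 0.49 and Tek -0.53 to 0.95. Ring at 7 dpi: Flt1 -0.14 to 0.16, Plvap -0.85 to 0.0582, Ocln -0.67 to 0.11 and Mfsd2a -0.20 to 0.0834. Ring at 21 dpi: Flt1 -0.34 to 0.51, Tek -0.35 to 0.74, Pecam1 -0.53 to 0.17, Kdr -0.26 to 0.0418 and Ocln -0.47 to 0.77. Fold between times: Mfsd2a -1.02 to 0.25, Pecam1 -0.0982 to 0.60, Flt1 -0.15 to 0.22, Kdr -0.54 to 0.58, Cldn5 -0.18 to 0.71 and Cdh5 -0.16 to 0.80. Fibrotic spots, 7 against 21 dpi: Kdr -0.18 to 0.26, Pecam1 -0.25 to 0.50, Mfsd2a -0.58 to 0.71 and Tek -0.99 to 0.0680. Deleter against wild type: Cldn5 -0.45 to 0.26, Tek -0.69 to 0.00494 and Abcb1a -0.11 to 0.63. Other spots, 7 against 21 dpi: Kdr -0.57 to 0.73, Ocln -0.73 to 0.70, Abcb1a -0.0207 to 0.31 and Pecam1 -0.37 to 0.21.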
